A study of Mus musculus with 12 samples.

Results

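CD2, the SLAM family, CD5 and CD6 are receptors on the surface of T cells, and their RNA was described here in thymocytes of wild-type and TCF-1 KO mice and in T cell lymphomas of the latter. The 9 genes were selected on earlier results of these data: Cd2 and Cd5 were known to stand higher without TCF-1, and Cd48, Cd84, Ly9, Slamf1, Slamf6, Slamf7 and Cd6 were added as related receptors, to ask whether the rise of Cd2 is shared. They are 9 of the 19938 genes with a row of their own in the deposited array table, and each has 1 row. Of the 9, 8 passed the filter on low signals; Slamf7 did not.

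The samples are of C57/BL6 mice. The WT DN3 group (3 arrays) holds thymocytes sorted at the DN3 stage, where cells carry neither CD4 nor CD8 and test their first T cell receptor chain, from wild-type mice aged 8 to 12 weeks. The TCF-1 KO DN3 group (3 arrays) holds the same stage from mice of the same ages that lack TCF-1, a transcription factor of the early T cell lineage. The lymphoma group (6 arrays) holds malignant T cells sorted from the thymus of TCF-1 KO mice aged 12 to 40 weeks. All lymphomas therefore lack TCF-1, none is of wild-type origin, and they differ from both DN3 groups in age. The arrays are labelled biological replicates. The labels give neither the TCF-1 allele nor the kinship of the mice, so a p-value covers no more than the spread among these samples.

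CD2 strengthens the contact between a T cell and its partner, and in mice it binds CD48, a receptor tied to the membrane by a lipid anchor. CD48 and the other SLAM receptors are immunoglobulin-like proteins; Ly9, Slamf1, Slamf6, Slamf7 and Cd84 each bind a copy of themselves on a neighbouring cell, and inside the cell most of them signal through the small adaptor SAP (gene Sh2d1a) and the kinase Fyn. CD5 and CD6 are scavenger-type receptors that tune T cell receptor signals, and CD5 on thymocytes is known to follow the strength of those signals; CD6 binds ALCAM.

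Most of the family sits side by side. Ly9, Slamf7, Cd48, Slamf1, Cd84 and Slamf6 follow each other in this order on chromosome 1, Cd5 and Cd6 are neighbours on chromosome 19, and Cd2 is on chromosome 3. RefSeq promoters (GRCm38.p6, 250 bases before to 50 after a gene's start) were at hand for 6 of the 9 genes, namely Cd48, Cd84, Slamf1, Slamf6, Slamf7 and Cd5. They were searched on both strands for CTTTGA, the core bound by TCF-1 and its relatives, TGTGGT, the core bound by RUNX factors, and the E box, CANNTG. Of these, CTTTGA was present in 1 of the 6, Cd48, against 16% of the 32851 promoters of that length. TGTGGT was present in 2, Cd48 and Cd84, against 16.8%. An E box was present in all 6, and in 72.3% of all promoters. The 250 bases before the starts of Slamf6 and Cd84 are shown because these neighbours, transcribed from the same strand, had differences of opposite sign in TCF-1 KO DN3 cells. Capitals mark the TGTGGT match, which lies 45 bases before the start of Cd84; Slamf6 (chr1:171917212-171917461, plus strand) has no match to CTTTGA or TGTGGT in this window, and Cd84 lies at chr1:171839447-171839696, plus strand.
Slamf6: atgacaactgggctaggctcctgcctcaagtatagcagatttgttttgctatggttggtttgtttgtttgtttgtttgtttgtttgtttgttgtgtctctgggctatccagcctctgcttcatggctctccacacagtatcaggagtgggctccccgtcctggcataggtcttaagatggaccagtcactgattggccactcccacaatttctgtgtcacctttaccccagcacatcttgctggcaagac
Cd84: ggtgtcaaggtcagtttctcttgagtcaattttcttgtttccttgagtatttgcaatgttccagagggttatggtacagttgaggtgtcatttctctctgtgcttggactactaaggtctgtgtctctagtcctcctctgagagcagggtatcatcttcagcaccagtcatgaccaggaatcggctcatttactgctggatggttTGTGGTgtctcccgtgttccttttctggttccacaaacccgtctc

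Cd48 is the receptor that fell in the lymphomas, and its 2 matches are shown with 30 bases each. The first (chr1:171681812-171681841) begins 168 bases before the start and holds CTTTGA on the minus strand, read here as its reverse complement. The second (chr1:171681904-171681933) begins 76 bases before the start and holds TGTGGT, which overlaps an E box that begins 78 bases before the start.
Cd48, CTTTGA on the minus strand: cggcctcagtgcTCAAAGtgcactgctgaa
Cd48, TGTGGT: aatctcattccaTGTGGTgtgatggtagtg

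A match is a description of the letters and was not tested as a binding site.

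Values are log2 signals, as the authors deposited them, so a difference of 1 is a 2-fold change. RMA normalisation brings the arrays to a common distribution at the level of probes, and the deposited values do not share 1 distribution exactly. Differences are thus relative to the other genes of an array. In bulk samples fewer cells carrying an RNA cannot be told apart from less RNA per cell. The median signal was 5.3 to 5.39 per array, and the number of arrays limits the precision. The arrays fell into a smaller set (replicate 1 of both DN3 groups and lymphomas 1 and 2) and a larger set of 8, by 34 rows without a gene name; the labels do not name this split, which is called an array batch here. Xist was high on 3 of 3 WT DN3, 2 of 3 TCF-1 KO DN3 and 3 of 6 lymphoma arrays, so sex was not balanced. The gene deleted in the TCF-1 KO mice was not analysed here. All 8 DN3 identity genes (Il2ra, Ptcra, Cd3e, Cd3g, Rag1, Rag2, Notch1 and Thy1) passed the filter, and their mean level was 9.41 to 9.53 on WT DN3 arrays, 9.25 to 9.44 on TCF-1 KO DN3 arrays and 8.62 to 9.36 on lymphoma arrays.

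**Figure D1:**
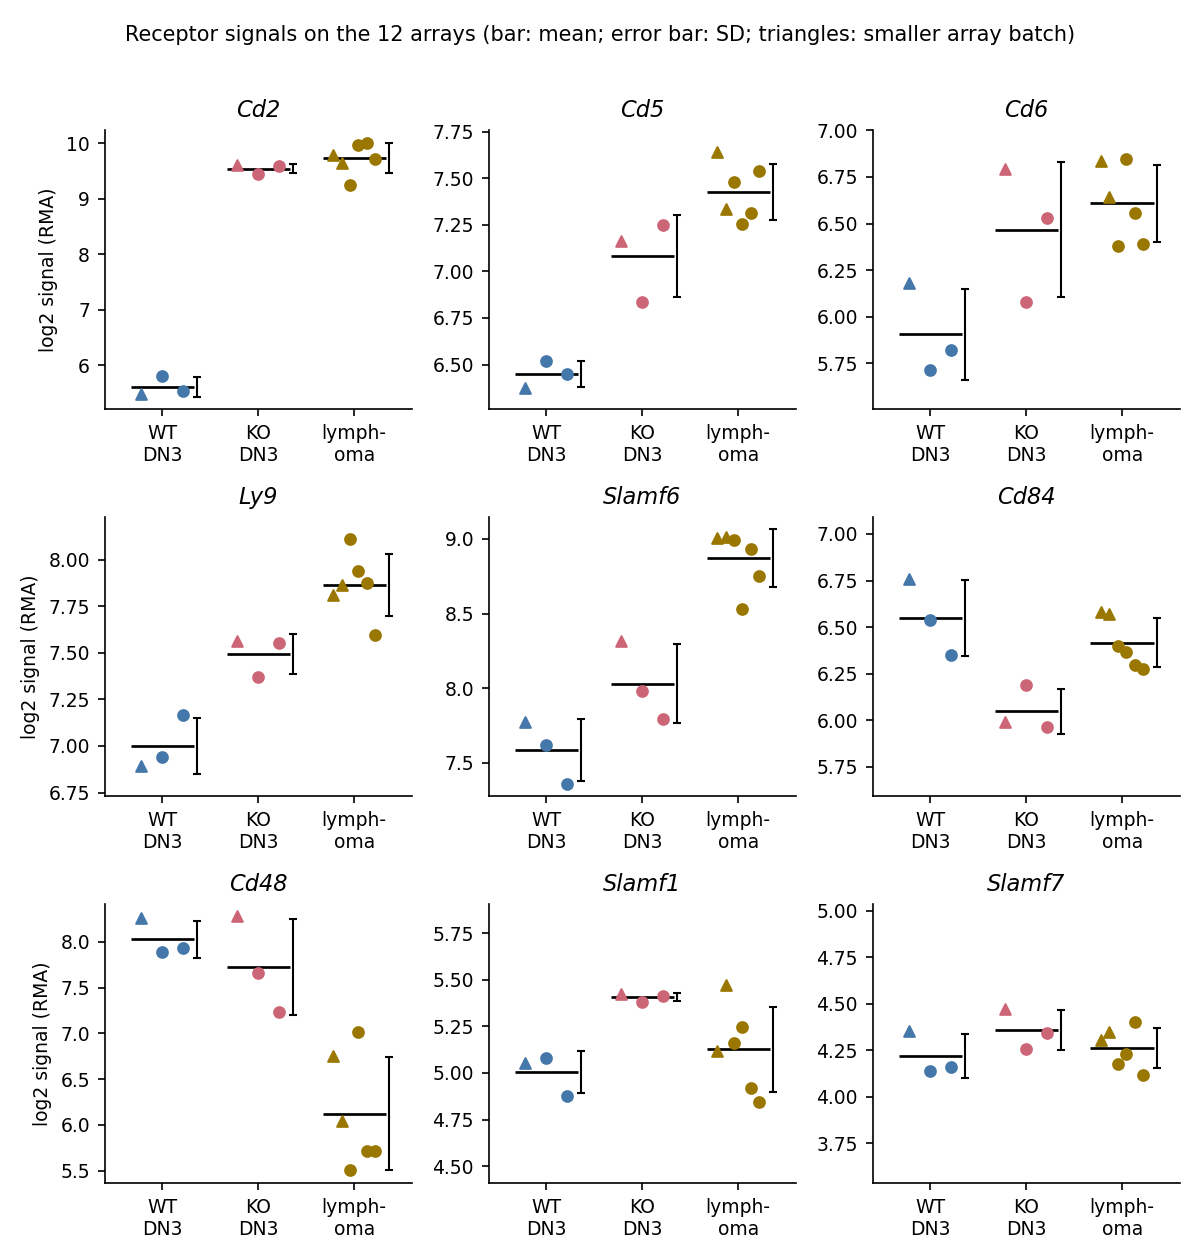
Log2 signal of the 9 receptor genes (vertical axes, 1 scale per panel) on each array of WT DN3, TCF-1 KO DN3 and lymphoma cells; bars are group means, error bars the SD, and triangles the smaller array batch. Cd2 moved from 5.49 to 5.81 in WT DN3 cells to at least 9.25 on every array without TCF-1, while Cd48 was between 5.50 and 7.01 in the lymphomas and between 7.89 and 8.26 in WT DN3 cells.

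Cd2, the adhesion receptor, had log2 signals of 5.49, 5.81 and 5.53 on the WT DN3 arrays and of 9.61, 9.45 and 9.59 on the TCF-1 KO DN3 arrays. The lymphomas stood at 9.79, 9.65, 9.25, 9.97, 10.02 and 9.72. No array without TCF-1 came within 3.44 log2 units of a WT array, and the lymphomas and the TCF-1 KO DN3 cells overlapped. The means differed from WT DN3 by 3.94 (SE 0.13) in TCF-1 KO DN3 cells and by 4.12 (SE 0.15) in lymphomas; both are given with no test, since the gene was chosen for them. The WT signals of 5.49 to 5.81 compare with a filter level of 4.78 and with array medians of 5.3 to 5.39. Whether a floor of the array signals limits the difference was not tested. Between lymphomas and TCF-1 KO DN3 cells Cd2 differed by 0.19 (SE 0.15, limma adjusted p = 0.455), with a 95% interval from -0.14 to 0.51. Over the alternatives the difference ranged from 0.02, with the replicate block, to 0.28, without lymphoma 3. The block value rests on lymphomas 1 to 3, since the others share no number with a DN3 array.

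Cd5, the inhibitory receptor that follows T cell receptor signals, also stood higher in every sample without TCF-1. Its signals were 6.38, 6.52 and 6.45 in WT DN3 cells, 7.17, 6.83 and 7.25 in TCF-1 KO DN3 cells, and 7.64, 7.33, 7.48, 7.26, 7.31 and 7.54 in the lymphomas. The 3 groups did not overlap, but the lowest lymphoma lay only 0.008 above the highest TCF-1 KO DN3 array. The differences from WT DN3, again a description, were 0.63 (SE 0.13) in TCF-1 KO DN3 cells and 0.98 (SE 0.10) in lymphomas. From TCF-1 KO DN3 cells to lymphomas the difference was 0.35 (SE 0.12, limma adjusted p = 0.102). It was 0.22 without TCF-1 KO DN3 replicate 2 and 0.20 when the arrays were quantile-normalised again, and was called in 0 of 21 alternatives.

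The first question was whether the other receptors rise with Cd2 in DN3 cells that lack TCF-1. Of the 7 related receptors, 6 were tested and 0 were called by limma at an adjusted p under 0.05, against 1.99% of all 14953 genes tested (0.568% called higher and 1.42% lower). At so low a share over all genes, 0 of 6 says little on whether the rise is shared. Of all genes called, 85 were higher and 213 lower, a split that became 31 and 26 without WT DN3 replicate 2, 48 and 74 without WT DN3 replicate 1, and 68 and 58 without TCF-1 KO DN3 replicate 3, which is also the fit with a sex term. At an unadjusted p under 0.05 there were 5 of the 6, against 16.3% of all genes. The arrays of the groups did not overlap for 4 of the 6, against 22% of all genes. With a replicate block, which pairs the WT and TCF-1 KO DN3 arrays of the same number, 5 of the 6 were called, against 9.23% of all genes. With the array batch as a term 4 were called, all but Cd48 and Slamf1. These counts pool both directions. Cd84, which was lower in TCF-1 KO DN3 cells, is counted at the unadjusted p, among the groups without overlap, with the block and with the batch term. These receptors were proposed with results in view, so the counts are no independent support. The differences of the 6 ran from -0.50 to 0.56, with a median of 0.43 against 0.03 over all genes, and none came near that of Cd2.

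Ly9, a SLAM receptor that binds itself, had signals of 6.89, 6.94 and 7.17 in WT DN3 cells and of 7.56, 7.37 and 7.55 in TCF-1 KO DN3 cells. Every TCF-1 KO array was above every WT array. The difference was 0.49 (SE 0.12, limma adjusted p = 0.0767) and reached an adjusted p of 0.0142 with the replicate block. The same-number pairs differed by 0.67, 0.43 and 0.38.

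Slamf6, the SLAM receptor also called Ly108, was at 7.77, 7.62 and 7.36 in WT DN3 cells and at 8.32, 7.98 and 7.80 in TCF-1 KO DN3 cells. The groups were separated by 0.025 log2 units. The difference of 0.45 (SE 0.16) had a limma adjusted p of 0.195, and of 0.0193 with the replicate block, since each TCF-1 KO array exceeded the WT array of its number by a like amount (0.55, 0.36 and 0.44).

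Cd6, the ALCAM receptor next to Cd5, was at 6.18, 5.71 and 5.82 in WT DN3 cells and at 6.80, 6.08 and 6.53 in TCF-1 KO DN3 cells. The groups overlapped, because the lowest TCF-1 KO array was below the highest WT array. The difference of 0.56 (SE 0.19) had a limma adjusted p of 0.171 and one of 0.00832 with the replicate block, with pair differences of 0.61, 0.36 and 0.71. Without TCF-1 KO DN3 replicate 2 it was 0.76 (limma adjusted p = 0.0451).

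Slamf1, the founding member of the family and a marker of haematopoietic stem cells, had the narrowest spread in TCF-1 KO DN3 cells. It stood at 5.05, 5.08 and 4.88 in WT DN3 cells and at 5.43, 5.38 and 5.41 in TCF-1 KO DN3 cells, with no overlap. The difference of 0.40 (SE 0.11) had a limma adjusted p of 0.107, and of 0.0327 with the replicate block. Its mean over all arrays, 5.17, is the member mean closest to the filter level on the upper side.

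Cd84 and Cd48 had differences below 0. Cd84, a SLAM receptor that binds itself, was at 6.76, 6.54 and 6.35 in WT DN3 cells and at 5.99, 6.19 and 5.96 in TCF-1 KO DN3 cells, with no overlap; the difference of -0.50 (SE 0.13) had a limma adjusted p of 0.0941, and of 0.0179 with the replicate block. Cd48, the ligand of CD2, was at 8.26, 7.89 and 7.93 and at 8.28, 7.66 and 7.23. The TCF-1 KO arrays of Cd48 spread over 1.05 log2 units and covered the WT range. Its difference of -0.31 (SE 0.22) was not called, with limma adjusted p = 0.525, or 0.162 with the replicate block. The same-number pairs differed by 0.02, -0.23 and -0.70. The difference was -0.58 without TCF-1 KO DN3 replicate 1, -0.06 without TCF-1 KO DN3 replicate 3 and -0.19 without WT DN3 replicate 1.

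Slamf7, a receptor of NK and plasma cells, stood at 4.35, 4.14 and 4.16 in WT DN3 cells, at 4.47, 4.26 and 4.34 in TCF-1 KO DN3 cells and between 4.12 and 4.40 in the lymphomas. All 3 groups overlapped. Its mean over all arrays, 4.28, was under the filter level, so it was not tested.

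**Figure D2:**
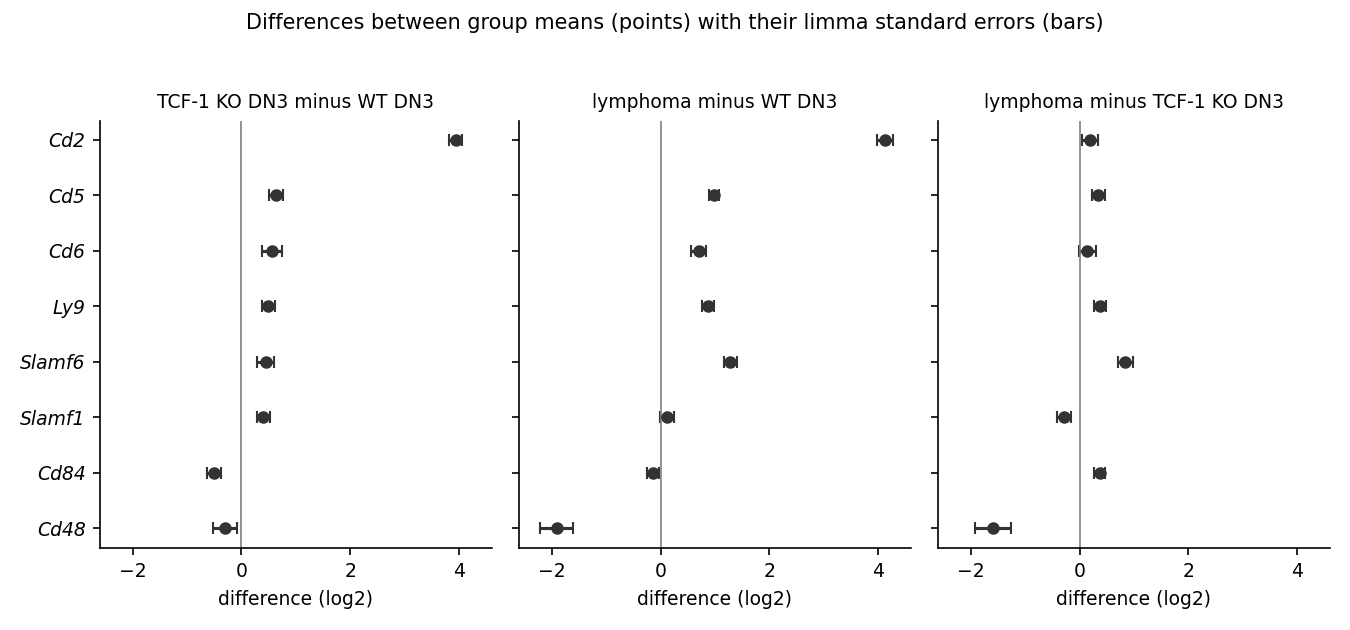
Differences between group means in log2 units (horizontal axis) for the 8 receptors that passed the filter, with limma standard errors as bars, in the 3 comparisons. Cd2 lies near 4 in both comparisons with WT DN3 and at 0.19 between lymphomas and TCF-1 KO DN3 cells; Cd48 lies at -1.91 and -1.60 in the lymphoma comparisons.

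The second question was how the lymphomas differ from WT DN3 cells, with the same WT arrays as before. Of the 6 related receptors tested, 3 rose and 1 fell, called by limma, against 5.82% of all genes (2.96% called higher and 2.86% lower). The arrays did not overlap for 4 of the 6, against 10.3% of all genes. Slamf6, Ly9 and Cd6 rose, Cd48 fell, and Slamf1 and Cd84 were not called. The median difference was 0.41, against -0.01 over all genes. The lymphomas and their controls also differed in age and cell state.

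Slamf6 had the largest rise of these. The lymphomas ranged from 8.53 to 9.01, with a median of 8.96, all above the highest WT array at 7.77. The difference was 1.29 (SE 0.13, limma adjusted p = 6.78e-05), a factor of 2.44, and it was 1.24 in the smaller and 1.31 in the larger batch. Ly9 was at 7.81, 7.87, 8.11, 7.94, 7.87 and 7.60 in the lymphomas, again with no overlap, and rose by 0.87 (SE 0.11, limma adjusted p = 0.000448). In the 2 batches that rise was 0.95 and 0.82.

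Cd6 was at 6.83, 6.64, 6.38, 6.85, 6.55 and 6.39 in the lymphomas and rose by 0.70 (SE 0.14, limma adjusted p = 0.00853). The lowest lymphoma was 0.20 above the highest WT array. Without WT DN3 replicate 2 or 3 the adjusted p was 0.0654 or 0.0556, so the call rests on both.

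Cd48 went the other way. Its signals in the lymphomas were 6.75, 6.04, 5.50, 7.01, 5.71 and 5.71, a spread of 1.51 log2 units and the widest of any receptor in any group. Even the highest lymphoma was 0.88 below the lowest WT array. Cd48 fell by 1.91 (SE 0.30, limma adjusted p = 0.00199), a 3.75-fold lower level, with a 95% interval from -2.56 to -1.25. Cd48 fell by 1.87 within the smaller and fell by 1.93 within the larger batch. The RNAs of CD2 and its ligand thus differed from WT DN3 in opposite directions in these tumours. By its difference Cd48 ranked 37th from the bottom of all 14953 genes tested. The rise of Cd2 was known when it was chosen, so no rank is given for it.

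Slamf1 lay between 4.84 and 5.47 in the lymphomas, with a median of 5.14, and overlapped the WT range. It differed by 0.12 (SE 0.13, limma adjusted p = 0.8), with a 95% interval from -0.16 to 0.41. Over the alternatives it ranged from 0.06, without lymphoma 2, to 0.25, with the replicate block, which rests on lymphomas 1 to 3. Cd84 lay between 6.28 and 6.58, with a median of 6.38, and overlapped the WT range. Its difference was -0.13 (SE 0.11, limma adjusted p = 0.688), with a 95% interval from -0.37 to 0.10. It was -0.03 without WT DN3 replicate 1 and -0.23 without WT DN3 replicate 3.

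The third comparison set the lymphomas against TCF-1 KO DN3 cells, both without TCF-1. It shares its TCF-1 KO arrays with the first comparison and its lymphoma arrays with the second. Cd2 and Cd5 were chosen on differences of these groups from WT DN3, so their tests here are not free of that choice. Of the 8 receptors tested, 1 was called higher and 1 lower by limma, against 6.62% of all genes (4.5% higher and 2.12% lower). The arrays did not overlap for 5 of the 8, against 13.6% of all genes. Of all genes called, 673 were higher and 317 lower, a split that became 491 and 448 when the arrays were quantile-normalised again.

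Slamf6 was the receptor that rose: its lowest lymphoma, 8.53, was above the highest TCF-1 KO DN3 array, 8.32. The difference was 0.84 (SE 0.14, limma adjusted p = 0.00423), and 0.69 and 0.91 within the batches. Its levels thus had the order WT DN3, TCF-1 KO DN3, lymphoma, with no overlap between neighbours. Cd48 fell by 1.60 (SE 0.33, limma adjusted p = 0.0141), with the highest lymphoma 0.22 below the lowest TCF-1 KO DN3 array. That call rests on TCF-1 KO DN3 replicate 1, which had the highest Cd48 signal of its group: without it the difference was -1.32 (limma adjusted p = 0.0798), and within the larger batch it differed by -1.46 (limma adjusted p = 0.074), neither of them a call.

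Ly9 and Cd84 stood higher in every lymphoma than in any TCF-1 KO DN3 array without passing the test. Ly9 differed by 0.37 (SE 0.11, limma adjusted p = 0.0662) and Cd84 by 0.37 (SE 0.10, limma adjusted p = 0.0513). Of 21 alternatives, 3 called Ly9 and 6 called Cd84; both were called when the arrays were centred on their medians and when 1 fit was made to all arrays. When the arrays were quantile-normalised again Ly9 differed by 0.21 (limma adjusted p = 0.358). Within the larger batch the limma adjusted p was 0.193 for Ly9 and 0.273 for Cd84, which differed there by 0.26. Cd84 thus had its lowest levels in TCF-1 KO DN3 cells, while WT DN3 cells and lymphomas overlapped. Slamf1 had its highest mean in TCF-1 KO DN3 cells, and its difference of -0.28 in the lymphomas (SE 0.13, limma adjusted p = 0.199) was not called. Cd6 differed by 0.14 (SE 0.16, limma adjusted p = 0.612), with a 95% interval from -0.21 to 0.49. It was 0.30 without TCF-1 KO DN3 replicate 1 and -0.055 without TCF-1 KO DN3 replicate 2.

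The tumours did not keep 1 order across receptors. Lymphoma 3 had the lowest Cd2 (9.25), Cd48 (5.50) and Cd6 (6.38) signals and the highest Ly9 signal (8.11). Lymphoma 4 had the highest Cd48 (7.01) and Cd6 (6.85) signals and the lowest Slamf6 (8.53) and Cd5 (7.26) signals. The SD over the 6 tumours was 0.62 for Cd48, and between 0.11 and 0.28 for the other 8 receptors. The smaller batch held lymphomas 1 and 2, which had the highest Cd84 signals (6.58 and 6.57).

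The genes beside the receptors on the chromosomes served as a comparison for position. The 3 nearest tested genes on either side of Cd2, of the chromosome 1 cluster and of the Cd5 and Cd6 pair make 18 neighbours that are not members. In TCF-1 KO DN3 cells 0 of the 18 were called by limma, against 1.99% of all genes, and they differed by -0.43 to 0.40. At an unadjusted p under 0.05 there were 5 of the 18, against 16.3% of all genes. With so low a share of calls over all genes, 0 of 18 says little about position. In the lymphomas against WT DN3 1 of the 18 was called, against 5.82% of all genes. Ptgfrn, next to Cd2 and encoding a partner of tetraspanins, rose by 0.50 (SE 0.10, limma adjusted p = 0.0126). This call was lost in the larger batch (limma adjusted p = 0.0648) and without WT DN3 replicate 1 (0.0689) or 2 (0.0728). It was also lost with the replicate block (0.0842), which rests on lymphomas 1 to 3. Against TCF-1 KO DN3 cells 1 of the 18 was called, against 6.62% of all genes. This was Ncstn, a subunit of gamma-secretase beside the cluster, which rose by 0.44 (SE 0.11, limma adjusted p = 0.036), a call that 11 of 21 alternatives did not keep. Within the cluster itself Cd48 lies between Slamf7 and Slamf1 and fell in the lymphomas, while Ly9 and Slamf6, on either side of these, rose.

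**Figure D3:**
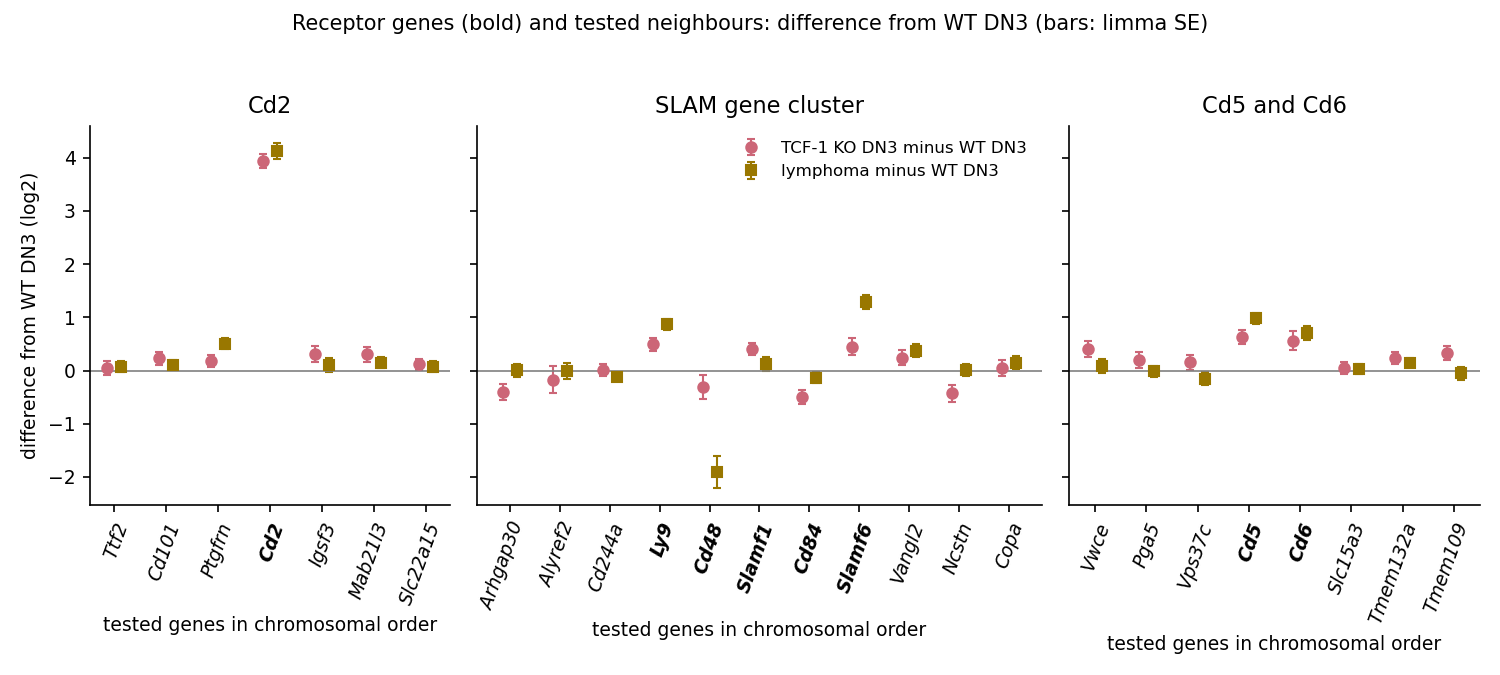
Difference from WT DN3 in log2 units (vertical axis) of the receptor genes in bold and of tested neighbours, in chromosomal order, for TCF-1 KO DN3 cells (circles) and lymphomas (squares), with limma standard errors as bars. Cd2 stands at 3.94 and 4.12 among neighbours of at most 0.50, and Cd48 at -1.91 lies in a cluster where Ly9 (0.87) and Slamf6 (1.29) are above 0 in the lymphomas.

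The other SLAM genes were not among the calls. Of Cd244a, also a receptor for CD48, Slamf8 and Slamf9, 2 passed the filter, and 0 were called by limma in any of the 3 comparisons, with 0 at an unadjusted p under 0.05. Over all genes 1.99%, 5.82% and 6.62% were called in the 3 comparisons, so 0 of 2 says little. Cd244a stood at 4.97 to 4.98 in WT DN3 cells, 4.95 to 5.03 in TCF-1 KO DN3 cells and 4.77 to 4.91 in the lymphomas. Slamf8 was under the filter.

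Of the ligands outside the family (Alcam, which binds CD6; Cdcp1, also a CD6 ligand; and Cd72, described as a CD5 ligand), Alcam was called once. It stood at 6.29, 6.35 and 6.29 in WT DN3 cells and at 5.67, 5.44 and 5.48 in TCF-1 KO DN3 cells, with no overlap. Alcam fell by 0.78 (SE 0.11, limma adjusted p = 0.00758). The adjusted p was 0.544 when 1 fit to all arrays took its spread from the lymphomas too, and 0.0576 without WT DN3 replicate 2. The lymphomas scattered over 8.68, 8.21, 6.42, 5.32, 7.30 and 8.13, on both sides of the DN3 levels, and none of the 3 ligands was called there. Against WT DN3 0 of the 3 had an unadjusted p under 0.05, and against TCF-1 KO DN3 1. Over all genes these shares were 15.5% and 24.7%.

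The proteins that carry the signal inside the cell were a list of 21 adaptors, kinases and phosphatases, of which 17 were tested. In TCF-1 KO DN3 cells 1 of the 17 rose and 0 fell, with a median difference of -0.17. In the lymphomas against WT DN3 4 rose and 2 fell (median 0.20), and against TCF-1 KO DN3 3 rose and 0 fell (median 0.21). Over all genes the medians were 0.03, -0.01 and -0.03, and 1.99%, 5.82% and 6.62% were called.

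Sh2d1a, which encodes SAP, was at 8.98, 8.58 and 8.51 in WT DN3 cells, and at 9.54, 9.04 and 9.13 in TCF-1 KO DN3 cells. The lymphomas ranged from 9.48 to 10.04, with a median of 9.72. Every TCF-1 KO array was above every WT array, and the lymphomas overlapped the highest of them. Against WT DN3 Sh2d1a rose in the lymphomas by 1.04 (SE 0.16, limma adjusted p = 0.00139).

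Fyn, the kinase that SAP recruits, was at 7.09, 7.25 and 7.04 in WT DN3 cells, and at 8.14, 8.32 and 7.54 in TCF-1 KO DN3 cells. In the lymphomas it ranged from 8.41 to 8.92, with a median of 8.66 and no overlap with either group. It rose by 0.88 (SE 0.18, limma adjusted p = 0.0359) in TCF-1 KO DN3 cells, a call that 8 of 18 alternatives did not keep. The adjusted p was 0.132 within the larger batch, and 0.109, 0.118 and 0.117 without WT DN3 replicate 1, 2 or 3. It was 0.0707 and 0.0667 without TCF-1 KO DN3 replicate 1 or 2. In the lymphomas it rose by 1.54 against WT DN3 (SE 0.11, limma adjusted p = 4.58e-06), and the 21 alternatives gave adjusted p of at most 0.000468. Its rise of 0.66 against TCF-1 KO DN3 (limma adjusted p = 0.029) was lost in 7 of 21 alternatives.

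Sh3kbp1 (CIN85) and Cd2ap (CMS) are related adaptors, and CMS binds the tail of CD2. Sh3kbp1 rose in the lymphomas by 0.86 against WT DN3 (SE 0.11, limma adjusted p = 0.00049) and by 0.82 against TCF-1 KO DN3 (SE 0.11, limma adjusted p = 0.00137). Cd2ap rose by 0.69 against TCF-1 KO DN3 (SE 0.14, limma adjusted p = 0.0122), and lost the call without TCF-1 KO DN3 replicate 1 or 3 and in the larger batch (adjusted p up to 0.145). Cblb, a ubiquitin ligase that restrains T cell receptor signals, fell by 0.73 against WT DN3 (SE 0.11, limma adjusted p = 0.00103). The other two calls against WT DN3, named after their values were seen, were the phosphatase gene Ptpn6, higher, and the adaptor gene Grap2, lower.

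**Figure D4:**
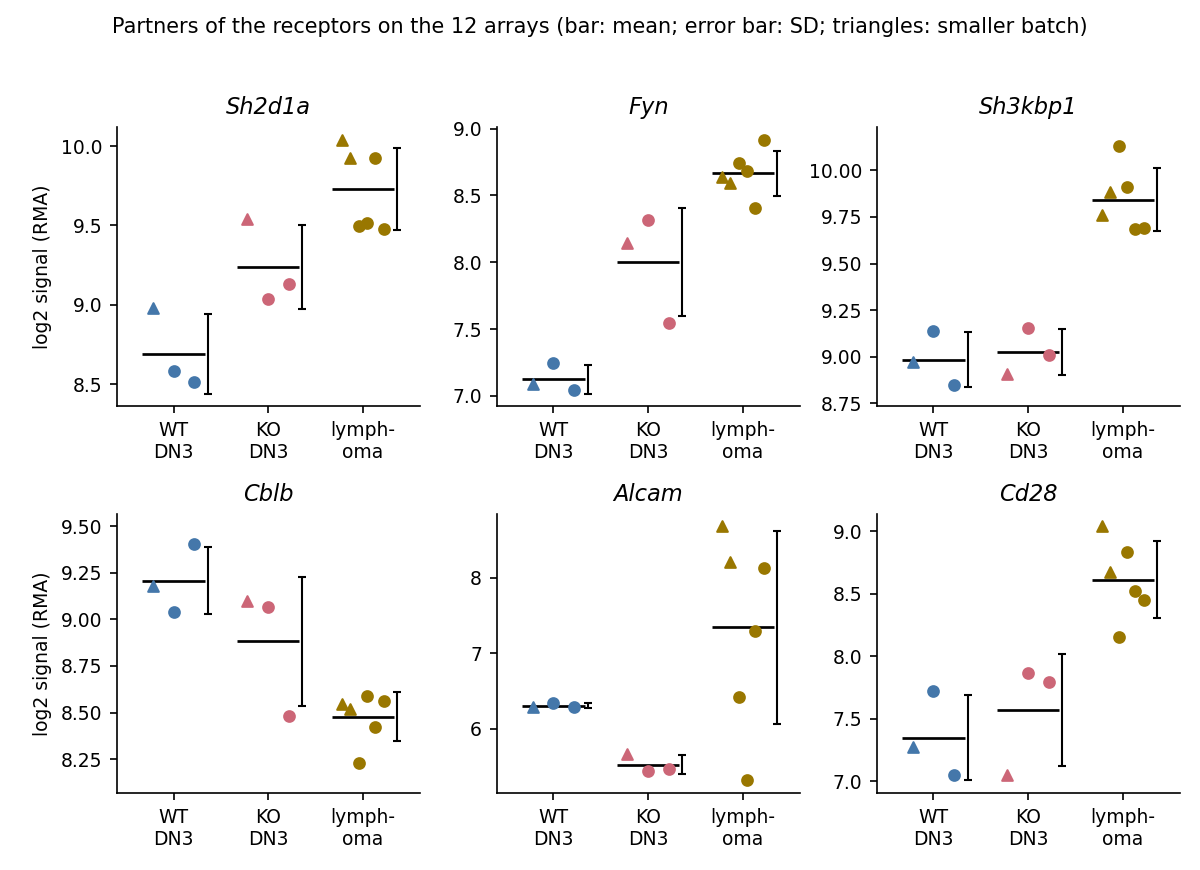
Log2 signal (vertical axes, 1 scale per panel) of Sh2d1a, Fyn, Sh3kbp1, Cblb, Alcam and Cd28 on each array of WT DN3, TCF-1 KO DN3 and lymphoma cells, with group means as bars, the SD as error bars and the smaller batch as triangles. Fyn ranged from 8.41 to 8.92 in the lymphomas, above every DN3 array, while Alcam ranged from 5.32 to 8.68 over the 6 lymphomas.

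CD2, CD5, CD28 and the coreceptors are known to increase as thymocytes pass beta selection, the step after DN3, so genes of that step were counted too. The mean level of the 10 measured was 7.02 to 7.17 on WT DN3 arrays, 7.20 to 7.50 on TCF-1 KO DN3 arrays and 7.36 to 7.85 on lymphoma arrays. Of all genes, 1.99% were called in TCF-1 KO DN3 cells. The share was 5.82% in lymphomas against WT DN3 and 6.62% against TCF-1 KO DN3. In TCF-1 KO DN3 cells 2 of 10 tested rose, both of them CD8 chains. Cd8a rose by 1.21 (SE 0.13, limma adjusted p = 0.00111) and Cd8b1 by 1.40 (SE 0.13, limma adjusted p = 0.000455). Cd8a was not called with 1 fit to all arrays (limma adjusted p = 0.129). The coreceptor gene Cd4 stood at 4.80 to 5.26 in WT DN3 cells and at 5.09 to 5.14 in TCF-1 KO DN3 cells. Cd28 stood at 7.05 to 7.72 and at 7.05 to 7.87. For Cd4 and Cd28 these groups overlapped, and neither was called there. In the lymphomas 5 rose and 1 fell against WT DN3. The 4 with the lowest p were Itm2a, a thymocyte activation marker (2.02), Cd27 (0.63), the costimulatory receptor Cd28 (1.26) and Cd8b1 (1.43). The other two calls, named after their values were seen, were Ets1, higher, and Trat1, lower. Against TCF-1 KO DN3 3 rose, Itm2a by 1.86, Cd28 by 1.04 and the transcription factor gene Ets1 by 0.48, and Trat1, a T cell receptor adaptor, fell by 1.65. The calls of Cd28, Ets1 and Trat1 in this comparison were lost, among other settings, without TCF-1 KO DN3 replicate 1 and in the larger batch (Trat1 also without replicate 2 or 3 and without lymphoma 2 or 5), with adjusted p up to 0.0788, 0.0923 and 0.161.

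Of 6 genes that respond to T cell receptor signals (Nr4a1, Egr1, Egr2, Egr3, Id3 and Cd69), 0 were called by limma in TCF-1 KO DN3 cells, with 1 at an unadjusted p under 0.05. The shares over all genes were 1.99% and 16.3%. In lymphomas 5.82% of all genes were called against WT DN3 and 6.62% against TCF-1 KO DN3. In the lymphomas Egr1, an immediate early transcription factor, was the 1 called, higher by 0.92 against WT DN3 (SE 0.13, limma adjusted p = 0.000802) and by 0.79 against TCF-1 KO DN3 (SE 0.13, limma adjusted p = 0.0046). DN3 identity genes had 0 calls by limma in TCF-1 KO DN3 cells, with 2 of 8 at an unadjusted p under 0.05, against 16.3% of all genes. Against WT DN3 the recombinase genes Rag1 and Rag2 fell in the lymphomas: Rag1 fell by 1.92 and Rag2 fell by 1.39, and the receptor chain gene Cd3g fell by 0.35. Against TCF-1 KO DN3 Rag1 fell by 1.62 and Ptcra, the pre-T cell receptor chain, fell by 0.64, and Cd3e rose by 0.59. The Cd3g call was lost in 8 of 21 alternatives, those of Rag1 and Rag2 against WT DN3 in 2 and 4, and those of Rag1, Ptcra and Cd3e against TCF-1 KO DN3 in 4, 12 and 4.

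Several of these receptors also mark other cells, so markers of such cells were set beside them. Over all genes, 1.99% were called in TCF-1 KO DN3 cells, with 16.3% at an unadjusted p under 0.05. In lymphomas the shares were 5.82% and 15.5% against WT DN3, and 6.62% and 24.7% against TCF-1 KO DN3. These shares are the background for each marker list below. Of 8 B cell markers 4 passed the filter and Cd79a, Ms4a1 and Ebf1 were under it; the mean over the measured list was 4.83 to 4.91, 4.90 to 5.01 and 4.65 to 4.79 on WT DN3, TCF-1 KO DN3 and lymphoma arrays. In the lymphomas Cd79b fell by 0.95 against WT DN3 and fell by 0.82 against TCF-1 KO DN3, and 0 of 4 were called in TCF-1 KO DN3 cells by limma, with 0 at an unadjusted p under 0.05. Of 8 NK cell markers, Ncr1, Klrb1c, Klrk1, Eomes and Klrd1 were under the filter, and the list means were 5.35 to 5.53, 5.50 to 5.71 and 5.31 to 5.56. Gzma rose by 0.68 in TCF-1 KO DN3 cells and by 0.66 in lymphomas against WT DN3, and in the lymphomas Nkg7 fell by 1.50 against WT DN3 and fell by 1.18 against TCF-1 KO DN3. The Gzma calls were lost in 5 of 18 and 4 of 21 alternatives, and the latter Nkg7 call in 2 of 21.

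Gamma-delta T cell markers (6 of 9 measured, all above the filter) averaged 5.76 to 5.94, 6.14 to 6.21 and 6.14 to 7.15. Cd163l1 rose by 1.03 in TCF-1 KO DN3 cells and by 1.10 in lymphomas against WT DN3, and Etv5 by 2.51 and 1.92 in lymphomas against WT DN3 and TCF-1 KO DN3; the calls of Cd163l1 were lost in 2 of 18 and 1 of 21 alternatives and those of Etv5 in 1 and 4 of 21. Mature and NKT cell markers averaged 5.10 to 5.17, 5.35 to 5.43 and 5.24 to 5.42, with Cd40lg and Il4 under the filter; 0 of 5 tested were called by limma in each comparison, with 2, 1 and 1 at an unadjusted p under 0.05. The means of these 2 lists and of the beta selection list stood higher on every TCF-1 KO DN3 array than on any WT DN3 array. Cd2, Cd5, Ly9, Slamf1 and Slamf6 did so too. Of the 10 beta selection genes tested, 7 differed by more than 0, with a median of 0.17. The largest rises were those of Cd8a (1.21) and Cd8b1 (1.40), while Tfrc, Trat1 and Ets1 had lower means than in WT DN3 cells. The mean of that list thus leans on the CD8 chains. The part of the 3 lists in the receptor differences was not tested.

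Plasma cell markers averaged 5.23 to 5.29, 5.23 to 5.39 and 4.98 to 5.31, with Jchain and Prdm1 under the filter. In lymphomas against WT DN3 Sdc1 rose by 0.69, Xbp1 fell by 0.68 and Mzb1 fell by 0.61; against TCF-1 KO DN3 Sdc1 rose by 0.48 and Mzb1 fell by 0.77. Of 21 alternatives, 13 did not keep the latter Sdc1 call and 1 did not keep either Mzb1 call. In TCF-1 KO DN3 cells 0 of 3 were called by limma, with 1 at an unadjusted p under 0.05. Myeloid and dendritic markers averaged 5.22 to 5.28, 5.26 to 5.31 and 5.22 to 5.41, with Itgax and Adgre1 under the filter, and 0 of 7 were called by limma in any comparison, with 0 at an unadjusted p under 0.05. Thymic stroma markers averaged 5.70 to 5.75, 5.64 to 5.79 and 5.48 to 5.71. In the lymphomas Epcam fell by 1.05 against WT DN3 and fell by 1.06 against TCF-1 KO DN3, Foxn1 fell by 0.36 and Pecam1 rose by 0.64 against TCF-1 KO DN3 (lost in 10 of 20 and 6 of 21 alternatives), and 0 of 7 were called in TCF-1 KO DN3 cells by limma, with 2 at an unadjusted p under 0.05.

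The genes whose levels followed Cd2 most closely over the 12 arrays were found by the root-mean-square difference of mean-centred log2 signals, a description over arrays that fall into the 3 groups. They were Ptpn14 (0.70), a tyrosine phosphatase; Atp8a2 (0.74), a phospholipid flippase; Agfg1 (0.76), which takes part in vesicle traffic; Ikzf3 (0.78), the lymphoid factor Aiolos; and Afdn (0.81), the junction protein afadin. The root-mean-square deviation of Cd2 from its own mean was 1.77. Ikzf3 stood at 5.75 to 6.36 in WT DN3 cells, 7.59 to 8.18 in TCF-1 KO DN3 cells and 9.11 to 9.47 in the lymphomas, so that unlike Cd2 its TCF-1 KO DN3 and lymphoma levels did not overlap. No receptor of the family was among these 5. The measure depends on the size of a change, and the deviation from the own mean was 0.58 for Slamf6, 0.42 for Cd5 and 0.38 for Ly9. Receptors with such small changes could not come this close to Cd2, so their absence does not show whether they follow it. The closest gene to Ly9 was Rasgrp1 (0.13), an activator of Ras in T cells, and to Cd48 the interferon-induced Gbp11 (0.40). Slamf6 was followed by Mboat2 (0.17), Cd84 by the cyclin gene Ccnl1 (0.08), Slamf1 by Ccno (0.10), Cd5 by Epb41l5 (0.17) and Cd6 by Acp5 (0.15).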

How the data were processed

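Sorted cells went straight into Trizol; per the labels' protocols their RNA was amplified with NuGEN WT-Ovation Pico from 800 pg to 50 ng and put on Affymetrix arrays. The values the authors deposited are log2 signals, 1 per transcript cluster and array. The submitters' processing notes name RMA and Partek, with no version or setting. The log base is not stated and was taken as 2 from the range of the values. RMA includes a background correction and a quantile normalisation.

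Rows were named through the platform annotation, and of 35556 rows the 21789 with 1 gene symbol were used (21698 matched the RefSeq gene table of GRCm38.p6). For the 999 genes with several rows the brightest on average was kept. Genes averaging below the 25th percentile of all genes (log2 4.78) were dropped, which left 14953. The test was limma 3.58.1 in R 4.3.3 (lmFit and eBayes, two-sided) on the arrays of the groups compared, checked on simulated data, with Benjamini-Hochberg adjustment over all genes tested and calls at an adjusted p under 0.05. No level was set against that of another gene.

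The members and lists were chosen with earlier results of these data known. The text names all members, up to 4 called genes with the lowest p per list and comparison, the genes closest to each member and the neighbours called. Some genes of the lists are not reported here.

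To see whether replicate numbers pair arrays, each array's deviation from its group mean was correlated between groups. WT and TCF-1 KO DN3 arrays of the same number gave 0.51, 0.42 and 0.25 and were taken as pairs; the first pair also shares the smaller batch. With the WT and TCF-1 KO DN3 arrays of their number, lymphoma 1 gave 0.44 and 0.38, and lymphoma 3 gave 0.15 and 0.11. Lymphoma 2 gave -0.22 and -0.26, but it is in the smaller batch and the DN3 arrays numbered 2 are in the larger. These values do not settle whether the numbers pair lymphomas, and lymphomas were not taken as paired. The batch is the split of the arrays shown by most unnamed rows, 34 against 3 for the next, at a gap of at least 1 log2 unit. That each side must hold at least 2 arrays and 2 groups was added after seeing the data. Alternatives covered scaling, filter, row choice, variance model, weights, block, batch, sex and each array left out.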

Additional observations from a re-analysis of the deposited data

Results flagged for a closer look

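Of 39 named genes checked in the 6 lymphomas with Dixon's test of the lowest and highest value, 1 had a tumour apart from the others, and none of the 9 receptors did. Epcam, the epithelial marker, was at 4.59 in lymphoma 6, below the other tumours. Chance alone gives about 1 such value in 20 groups.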

How the results depend on the processing

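For the receptors other than Cd2 and Cd5 in TCF-1 KO DN3 cells, where 0 were called, the count was 5 with the replicate block and 4 with batch as a term, and it ranged from 0 to 1 when an array was left out. The counts of 5 and 4 include Cd84, which was lower. Against WT DN3 the lymphomas had 4 called receptors, and from 3 to 4 when an array was left out. Against TCF-1 KO DN3 the count of 2 became 4 with median-centred arrays, 4 with 1 fit to all arrays and 1 within the larger batch, and it ranged from 1 to 3 when an array was left out. The difference of Cd6 there, 0.14, ranged from -0.055 to 0.304 when an array was left out, with the turned value without TCF-1 KO DN3 replicate 2 (limma adjusted p = 0.84 there, and 0.326 to 0.919 over the alternatives). The cause of these shifts was not tested; leaving out arrays and using 1 batch also lowers the number of samples. Of the alternative values of single receptors 473 kept their side of the threshold or, with no test, moved by less than 1 SD, 19 passed the threshold, 4 lost it, 4 moved further without a test and 1 turned, the Cd6 value above. Of the 473, 2 turned in sign, both within the smaller batch, where there was no test: Cd48 in TCF-1 KO DN3 cells (0.016) and Cd6 in lymphomas against TCF-1 KO DN3 (-0.056). For the other named genes the counts were 893 kept, 134 lost and 7 moved.

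Over all genes the calls were 298 in TCF-1 KO DN3 cells (57 to 443 with an array left out, 126 to 1380 in other settings, the highest with the replicate block). They were 871 in lymphomas against WT DN3 (560 to 872, and 549 to 1092) and 990 against TCF-1 KO DN3 (431 to 1361, and 325 to 1702). With the replicate block, the lymphoma calls of Cd48, Ly9, Slamf6 and Cd6 against WT DN3 were kept. So were those of Cd48 and Slamf6 against TCF-1 KO DN3. Lymphomas were not taken as paired by number. Lymphomas 4 to 6 share no number with a DN3 array, so these block differences rest on lymphomas 1 to 3. Signals near the background limit Slamf7, which was not tested, and Slamf1.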
